A study of Mus musculus with 20 samples.

Results

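The 68 mouse genes whose symbol begins with Trim and a digit, of 21883 protein-coding genes with a unique symbol, were examined for binding of p65 and SOCS1 in bone-marrow-derived macrophages. They were chosen by symbol alone, from the RefSeq annotation of GRCm38.p6 (the assembly behind mm10), and a peak was linked to a gene where its centre lay within 10 kb of the gene's span. Wild-type cells (WT, spelled C65BL6 in the design text) and knockout cells (KO) were compared without treatment (control) and after 30 min or 8 h of lipopolysaccharide (LPS) at 100 ng/mL. Which gene the KO lacks is uncertain: it is NOS1 by the design text, but the study's title concerns SOCS1, and other labels are silent. Antibodies against p65 (RELA, the activating subunit of NF-κB) and SOCS1 (a feedback inhibitor of cytokine signalling) gave 1 CUT&RUN library for each genotype and treatment. The 12 peak lists therefore have no replicates, no difference was tested, and every comparison is between single libraries. If the KO lacked SOCS1, SOCS1 peaks in those cells could not be told apart from antibody background.

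Tripartite motif proteins carry a RING domain, 1 or more B-boxes and a coiled coil, and most act as ubiquitin ligases. Many serve innate immunity: they restrict viruses, tag RNA sensors or adaptors with ubiquitin, or feed back on NF-κB, and a group of them is induced by interferon. LPS acts on macrophages through TLR4, which activates NF-κB within minutes and interferon beta production after that. Interferon-induced genes are switched on through the ISRE, an element bound by STAT and IRF factors.

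The letters of the interferon element were present upstream of some Trim genes that had peaks over their start. Of 28 members with a peak over a start window in at least 1 list, 7 had the ISRE core in that window and 21 did not. The matching counts for all genes were not made, so these have no share to be set against. The ISRE core (GAAANNGAA, searched on both strands) lay in the 250 bases before an annotated start in 8 of the members' 67 start windows (11.9%), against 6.83% of the 21262 windows of all genes. These 8 belonged to Trim5, Trim7, Trim12c, Trim25, Trim26, Trim30a, Trim30d and Trim34b. The promoter table covers 53 of the 68 genes. Shown are 6 of these windows over which at least 1 list had a peak, from RefSeq on GRCm38.p6, 5′ to 3′ on the gene's strand, with the core in capitals. All cores shown read on the strand opposite to the gene, so that the capitals give the reverse complement of the motif. The windows are chr7:104288107-104288356 (minus strand, Trim5), chr7:104353350-104353599 (minus strand, Trim12c), chr7:104465194-104465443 (minus strand, Trim30a), chr7:104507850-104508099 (minus strand, Trim30d), chr11:88999153-88999402 (plus strand, Trim25) and chr17:36836896-36837145 (plus strand, Trim26).
Trim5: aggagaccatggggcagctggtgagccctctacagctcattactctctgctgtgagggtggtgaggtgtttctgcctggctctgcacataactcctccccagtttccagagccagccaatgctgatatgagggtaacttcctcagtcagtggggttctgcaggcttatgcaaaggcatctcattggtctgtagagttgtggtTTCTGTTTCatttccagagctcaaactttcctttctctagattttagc
Trim12c: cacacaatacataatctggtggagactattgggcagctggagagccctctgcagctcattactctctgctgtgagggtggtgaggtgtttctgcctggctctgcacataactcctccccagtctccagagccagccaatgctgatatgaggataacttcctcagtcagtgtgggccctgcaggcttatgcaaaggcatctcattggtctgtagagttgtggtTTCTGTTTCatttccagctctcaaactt
Trim30a: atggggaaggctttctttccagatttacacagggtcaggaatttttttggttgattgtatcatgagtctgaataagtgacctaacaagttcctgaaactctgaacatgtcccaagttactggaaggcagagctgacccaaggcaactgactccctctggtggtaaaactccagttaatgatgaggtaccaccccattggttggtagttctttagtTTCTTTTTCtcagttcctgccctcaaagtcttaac
Trim30d: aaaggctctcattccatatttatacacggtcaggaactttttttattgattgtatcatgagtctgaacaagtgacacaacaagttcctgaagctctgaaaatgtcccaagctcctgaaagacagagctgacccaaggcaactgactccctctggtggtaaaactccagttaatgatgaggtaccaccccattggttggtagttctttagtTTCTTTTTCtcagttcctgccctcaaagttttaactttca
Trim25: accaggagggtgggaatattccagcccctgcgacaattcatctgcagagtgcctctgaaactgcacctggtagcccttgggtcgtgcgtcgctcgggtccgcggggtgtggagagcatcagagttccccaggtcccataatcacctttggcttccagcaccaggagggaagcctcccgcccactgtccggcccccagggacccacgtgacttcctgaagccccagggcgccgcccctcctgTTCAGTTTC
Trim26: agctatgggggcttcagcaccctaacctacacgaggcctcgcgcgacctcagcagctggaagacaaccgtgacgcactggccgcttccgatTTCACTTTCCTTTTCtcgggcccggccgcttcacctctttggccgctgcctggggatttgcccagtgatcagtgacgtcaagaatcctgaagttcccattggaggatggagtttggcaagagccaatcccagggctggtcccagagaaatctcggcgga

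The core stood close to the start in most of these windows. It lay 48 to 40 bases before the start at Trim5, 28 to 20 at Trim12c, 35 to 27 at Trim30a, 40 to 32 at Trim30d and 9 to 1 at Trim25. Trim26 held overlapping cores 159 to 151 and 153 to 145 bases before its start. In a search added after these positions were seen, 5 further member windows (7.46%, against 1.42% of all windows) held a core that ended in the first 50 transcribed bases. These were the windows of Trim2, Trim12a, Trim21 and Trim34a and of a second Trim30a start. Some upstream windows of members of the chromosome 7 cluster described below were also near copies. Trim5 and Trim12a shared a run of 191 identical bases, and Trim30a and Trim30d matched at 226 of 245 aligned bases. Each window was counted on its own, so the members' shares of windows with a core do not count separate occurrences. Tags from such copies may not be separable, since how reads with several matches were handled is not given in the sources used here. For the other motifs, GAS (TTCNNNGAA, the STAT element) was in 6 member windows (8.96%, against 6.58% of all) and AP-1 (TGANTCA) in 5 (7.46%, against 6.13%). The κB consensus was in 1 member window, that of Trim43a (1.49%, against 4.18%). A match is a description of letters, not of a bound site.

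Peaks lay near 53 of the 68 Trim genes in at least 1 list (75.5% of all genes had one), and all 53 had a p65 peak. SOCS1 peaks lay near 48 of them. Trim43c, Trim50, Trim68, Trim71 and Trim80 had p65 peaks alone, and no member had SOCS1 peaks alone. For p65 in WT cells the control list reached 20 members (32.7% of all genes), the 30 min list 46 (61.9%) and the 8 h list 44 (55.9%). In KO cells the counts were 25 (35.8%), 47 (65.4%) and 45 (55.5%). SOCS1 peaks lay near 26 (32.4%), 34 (47.7%) and 30 (38.6%) members in WT cells, and near 37 (55.3%), 37 (51%) and 35 (44.6%) in KO cells. As shares of the 68 members these are 29.4% to 69.1% for p65 and 38.2% to 54.4% for SOCS1, at most 10.7 percentage points from the share of all genes in the same list. With every list held to its 9438 strongest peaks, as many as the shortest list holds, the p65 counts were 20, 20 and 23 in WT cells and 23, 18 and 25 in KO cells, which no longer had more members at 30 min than in control cells.

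**Figure D1:**
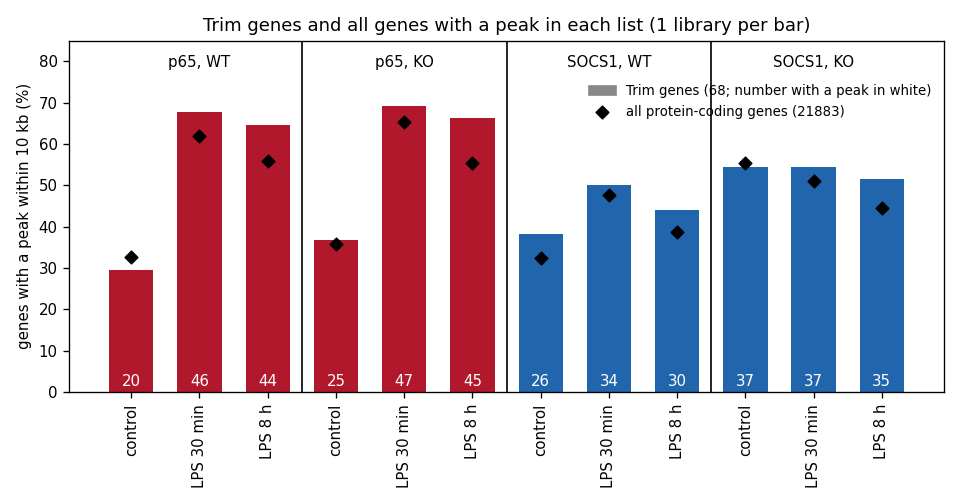
Bars give the percentage of the 68 Trim genes with a peak within 10 kb in each of the 12 lists (number in white), and diamonds the percentage of all 21883 protein-coding genes. Bars and diamonds lie near each other in every list, with the p65 bars lowest in control cells of both genotypes (20 and 25 genes).

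The libraries held 7.69 to 18.4 M tags (10 M are 10000000) for p65 and 6.93 to 9.74 M for SOCS1, and no list reached below scores of 7 to 12 tags, so a gene without a peak is not shown to be unbound. The score is the authors' tag count of a peak with at most 1 tag per bp, and it belongs to its own list. In KO control cells 100% of the Trim p65 peaks and 89.1% of the Trim SOCS1 peaks had IgG tags at the floor of 0.5, while the remaining 10 lists had 8.20% to 38.1%, so the KO control lists were called against almost no background. Macrophage markers had peaks throughout, with 7 to 9 of 9 called in every list. Neutrophil markers counted 1 to 4 of 5 and lymphocyte markers 0 to 2 of 3, where all genes had 32.4% to 65.4%. The neutrophil marker Elane and the lymphocyte marker Cd79a were each in 11 lists. The macrophage markers Mertk and Spi1 were in as many, and Adgre1 was in 9. Peaks do not measure expression.

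Members ranged from all 12 lists to none, in shares near those of all genes, with 31 of the 68 in 1 to 9 lists. Trim3, Trim7, Trim12a, Trim25 and Trim41 had a peak in all 12 lists (7.35% of members; 10.7% of all genes). A further 10 were in 11 lists (Trim2, Trim8, Trim17, Trim23, Trim28, Trim39, Trim45, Trim47, Trim56 and Trim69) and 7 in 10 lists (Trim12c, Trim14, Trim16, Trim27, Trim30b, Trim36 and Trim66). Together these 22 were 32.4% of members, against 30.5% of all genes. The 15 members in no list (22.1%, against 24.5% of all genes) were Trim10, Trim15, Trim31, Trim34b, Trim40, Trim42, Trim43a, Trim43b, Trim52, Trim54, Trim58, Trim60, Trim61, Trim63 and Trim75. Of these, Trim54 and Trim63 encode the muscle ubiquitin ligases MuRF3 and MuRF1, and 9 belong to the germline or restricted-tissue list (Trim10, Trim15, Trim42, Trim43a, Trim43b, Trim58, Trim60, Trim61 and Trim75). Trim60, Trim61 and Trim75 adjoin each other on chromosome 8, and Trim15, Trim10, Trim40 and Trim31 follow Trim26 on chromosome 17 with no peak, while Trim26 itself was called in 7 lists. The 15 members in no list were shorter, with a median span of 8562 bp against 17019 bp for the 22 widely called and 17170 bp for all genes. A longer span catches more peaks under the linking rule.

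**Figure D2:**
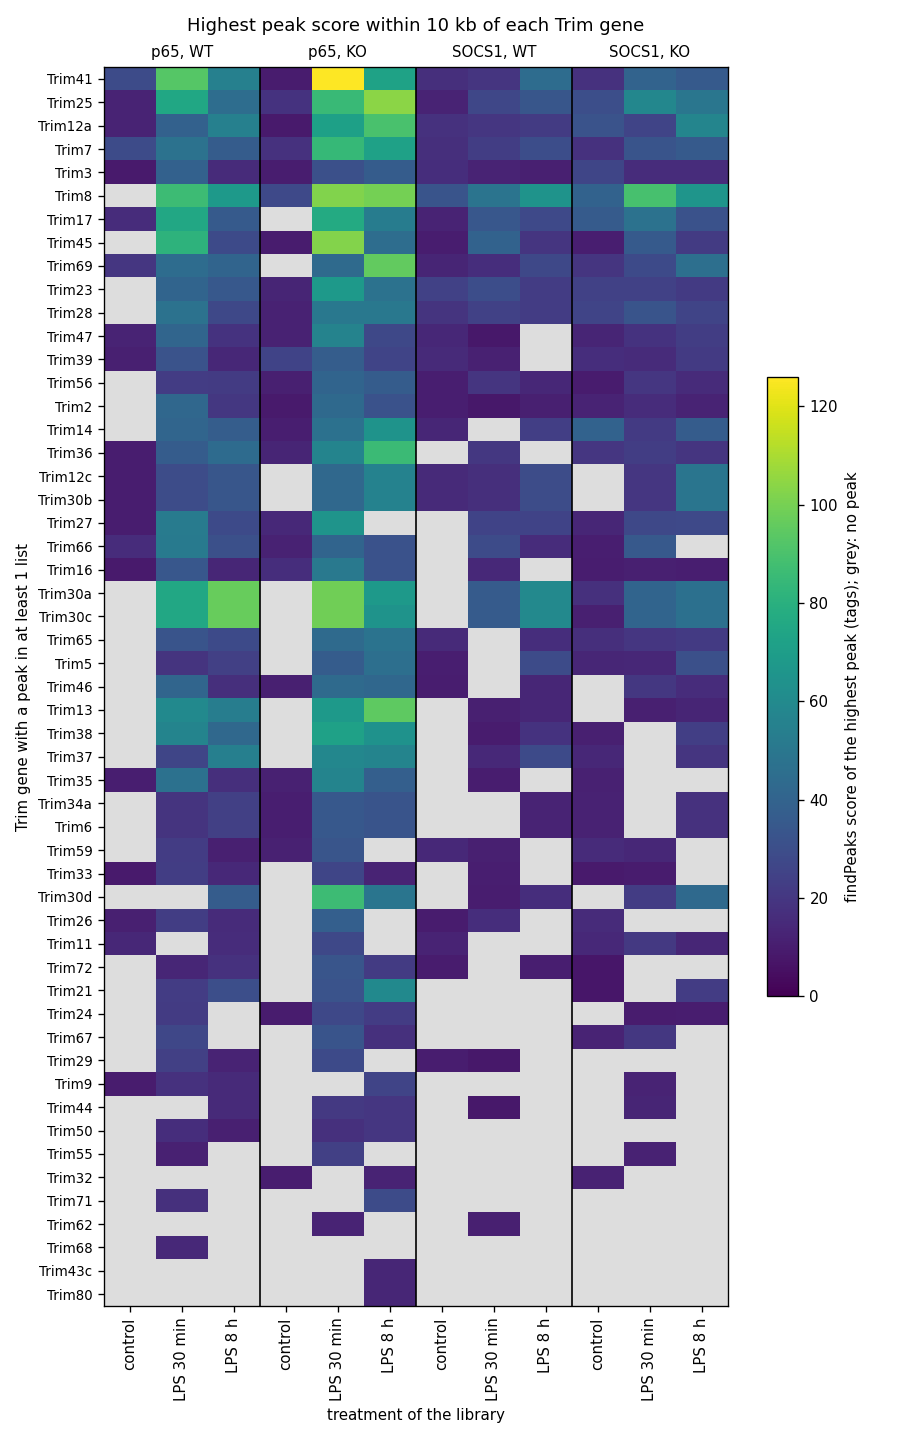
Rows are the 53 Trim genes with a peak, ordered by the number of lists, and columns the 12 lists; colour gives the highest peak score within 10 kb in tags and grey marks no peak. The 4 brightest cells are all p65 in KO cells: Trim41 (126), Trim45 (102.5) and Trim8 (102) at 30 min, and Trim25 (104) at 8 h. Scores are not scaled to depth, so colours do not compare binding between lists. The p65 library at 30 min held 18.4 M tags in KO cells and 13.3 M in WT cells. At 8 h p65 peaks were 493 bp wide in KO cells and 239 bp in WT cells.

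Peak attribution was not always to the Trim gene itself. Over the 6 p65 lists 458 peaks lay at members, 50.4% of them inside a member's span and 77.3% with a member as the nearest gene; for SOCS1 it was 317 peaks, 55.2% and 79.2%. Among members with an annotated start, 45.4% of p65 peaks and 47.2% of SOCS1 peaks lay within 1 kb of one. Merged over all lists the peaks formed 256 regions, of which 117 (45.7%) were in a single list, against 51.9% of all 96700 regions. Of the 256, 21 were linked to 2 or more Trim genes, so neighbours such as Trim12c and Trim30b or Trim41 and Trim7 share values.

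A cluster of 10 Trim genes on chromosome 7 (chr7:104218795-104507853, 289 kb) carried 4.85 WT p65 peaks per 100 kb at 8 h, against 1.55 over the genome, and 0.647 against 0.482 in control cells. These densities count the cluster with 10 kb on each side (309 kb) and the genome at the 2000000000 bp that the file headers give. The genome densities thus also cover sequence far from genes. The cluster holds Trim6, Trim34a, Trim5, Trim12a, Trim34b, Trim12c, Trim30b, Trim30c, Trim30a and Trim30d, relatives of the retrovirus restriction factor TRIM5 and of mouse Trim30a, a negative regulator of TLR-driven NF-κB signalling. The cluster's p65 peaks numbered 2, 8 and 15 in WT cells (control, 30 min and 8 h) and 2, 12 and 11 in KO cells. Its SOCS1 peaks numbered 3, 5 and 11 in WT cells and 9, 7 and 12 in KO cells. In WT cells both antibodies thus had most cluster peaks at 8 h, while their whole lists were longest at 30 min. Genes called for p65 numbered 3, 8 and 9 of 10 in WT cells (all genes 32.7%, 61.9% and 55.9%) and 3, 9 and 9 in KO cells (35.8%, 65.4% and 55.5%). For SOCS1 they numbered 4, 6 and 9 in WT cells (32.4%, 47.7% and 38.6%) and 6, 7 and 9 in KO cells (55.3%, 51% and 44.6%). Held to equal list length, the WT p65 counts were 3, 2 and 6 and the KO counts 2, 4 and 7, which keeps the higher count at 8 h but not at 30 min in WT cells. The SOCS1 counts were then 4, 5 and 7 in WT cells and 6, 6 and 9 in KO cells. Under that choice p65 reached 32.2%, 28.2% and 25.3% of all genes in WT cells and 33.1%, 27.1% and 28.7% in KO cells, and SOCS1 reached 32.4%, 32.2% and 30.1% and then 34.1%, 34.5% and 32.7%. Trim34b had no peak in any list.

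**Figure D3:**
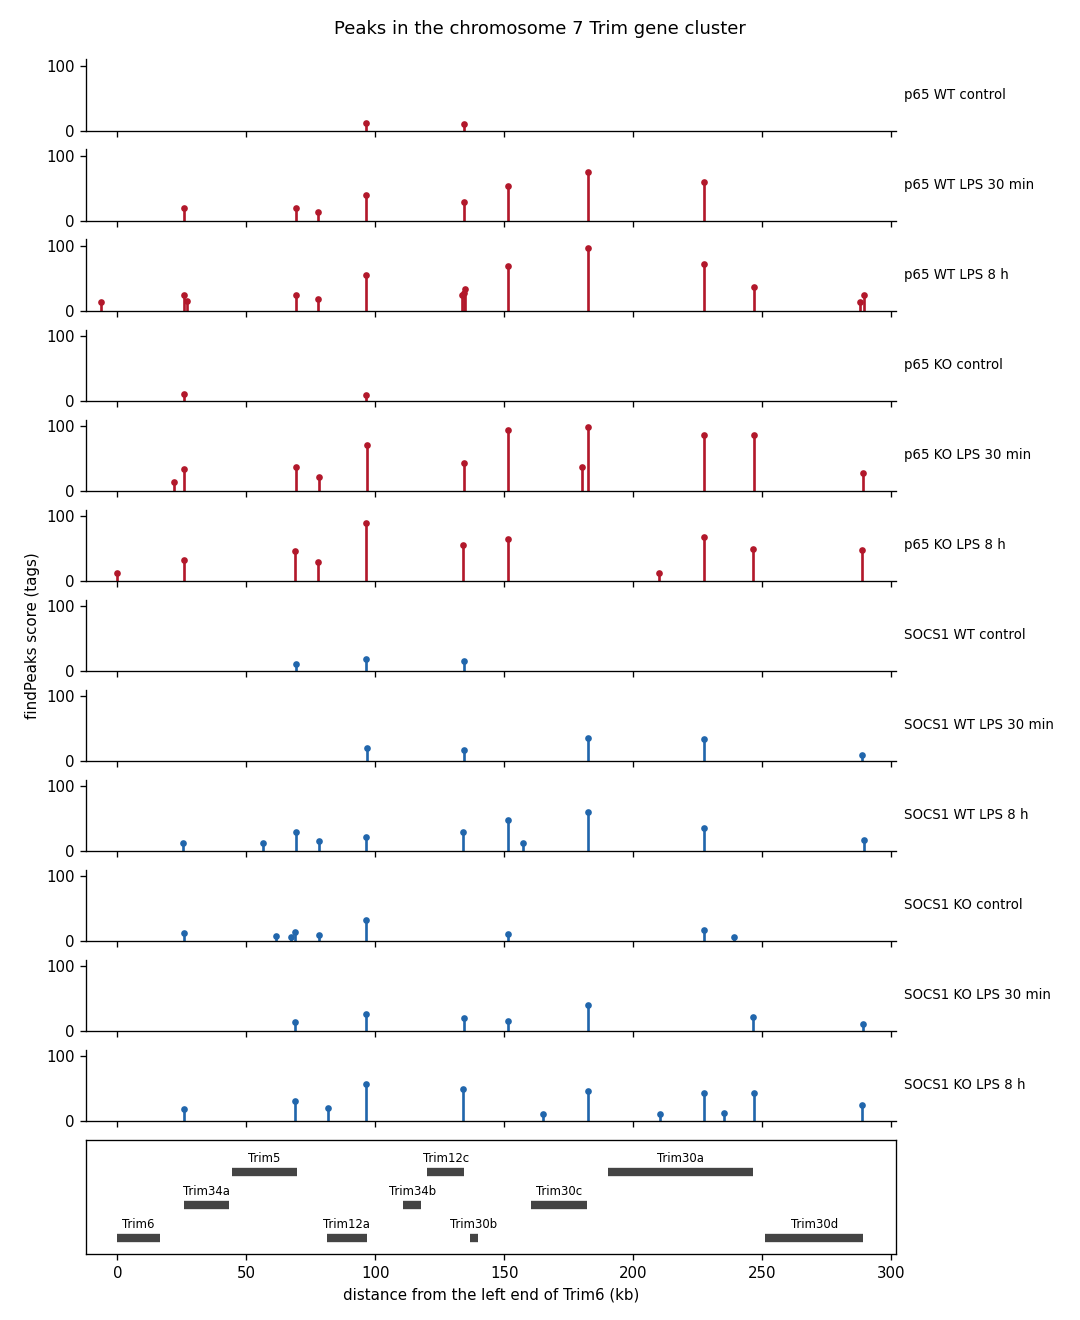
Each track shows the peaks of 1 list along the chromosome 7 cluster, placed by distance in kb from the left end of Trim6, with the findPeaks score in tags as height; gene spans are at the bottom. The WT p65 tracks have 2 peaks without LPS, 8 at 30 min and 15 at 8 h, the highest (75.5 and 96.5) at the Trim30c start.

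Some cluster sites recurred, while most were in a single list. Of its 29 regions 10 were in 5 or more lists (34.5%, against 25.4% of all regions at Trim genes), and 18 were in 1 list (62.1%, against 45.7%). All 8 cluster regions of WT p65 at 30 min, as merged over all lists, were called again at 8 h. All 8 were called in KO cells at 30 min. At Trim12c the p65 peaks of 30 min and 8 h fell in the same merged region without overlapping, in both genotypes. At all Trim genes 57.3% of WT p65 regions of 30 min were called again at 8 h, and 51.4% of all regions. In KO cells 9 of 12 cluster regions of p65 at 30 min were called again at 8 h (39.7% of all regions). At 8 h, 8 of 15 WT cluster regions of p65 were also called in KO cells (51.1% of all), and 6 of 11 of SOCS1 (47.7% of all). The only Trim region called in all 12 lists, of 208 such regions genome-wide, lay at the start of Trim12a (chr7:104314869-104315513). Its p65 score was 12.5, 39 and 55 in WT cells and 9, 71.5 and 90 in KO cells. Its SOCS1 score was 18, 20 and 22 in WT cells and 32, 26 and 57.5 in KO cells. Scaled to depth, the p65 count was highest at 8 h in both genotypes (68.9 and 115.9 tags, against 20.8 and 13.7 in control cells). The scaled SOCS1 count in WT cells was highest in control cells (39, then 31.8 and 32.1 tags), unlike its score, and in KO cells at 8 h (81.9, 47.2 and 121.6).

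The cluster's highest WT p65 scores came from a site near the Trim30c start (chr7:104400979-104401375), centred 352 bp from it at 30 min and 382 bp at 8 h, and within 10 kb of Trim30a as well. No control list called it. Its p65 score was 75.5 at 30 min and 96.5 at 8 h in WT cells and 98.5 at 30 min in KO cells, where it was not called at 8 h. SOCS1 scores there were 36 and 59.5 in WT cells and 40.5 and 46.5 in KO cells. A second site at the downstream start of Trim30a (chr7:104446081-104446583) had p65 scores of 60 and 71.5 in WT cells and 86 and 67.5 in KO cells. At the window printed above for Trim30a, p65 was called in WT cells at 8 h alone (36.5) and in KO cells at both LPS times (86.5 and 49). Over the printed Trim5 window a p65 peak was called in WT cells at 30 min (19) and 8 h (24) and in KO cells at 30 min (36.5). A SOCS1 peak was called there in WT control cells (10.5) and in WT cells at 8 h (29). The Trim12c start, whose peaks also lay within 10 kb of Trim30b, had p65 scores of 10, 29.5 and 33.5 in WT cells and, after LPS, 42.5 and 56 in KO cells.

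Scaled to 10000000 tags per library, the cluster's WT p65 sites also held more tags at 8 h than at 30 min. Where peaks of both times overlapped, 7 of 7 cluster sites had the higher count at 8 h, at 1.24 to 1.92 times the 30 min value, with a median of 1.56. At other Trim genes 8 of 45 sites did (17.8%, median 0.708 times), and genome-wide 23.9% of 16697 (median 0.700 times). This comparison was chosen after the values were seen, and peak windows were 254 and 239 bp wide in these lists. SOCS1 in KO cells had the higher count at 8 h at 5 of 6 cluster sites (median 2.00 times), against 6 of 22 at other Trim genes and 27.5% of all 6738 sites. SOCS1 in WT cells had 1 of 2, and 24.1% of all 5312 sites. In the p65 lists of KO cells 5 of 8 cluster sites were higher at 8 h, near the 63% of all 15881 sites, and these windows differed in width, 222 bp at 30 min and 493 bp at 8 h.

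Interferon-inducible and antiviral Trim genes, a list of 16 that includes the cluster, were called more often at 8 h of LPS than in control cells in all 4 series. For p65 they numbered 5, 14 and 15 in WT cells (all genes 32.7%, 61.9% and 55.9%) and 6, 15 and 14 in KO cells (35.8%, 65.4% and 55.5%). For SOCS1 they numbered 8, 10 and 13 in WT cells (32.4%, 47.7% and 38.6%) and 12, 10 and 14 in KO cells (55.3%, 51% and 44.6%), where the 30 min count was below that of control cells. Held to equal list length the p65 counts were 5, 5 and 10 in WT cells and 5, 6 and 11 in KO cells, and the SOCS1 counts 8, 8 and 11 and 10, 9 and 14. In that alternative, chosen after the data were seen, the counts at 8 h were the highest in each series and those at 30 min differed from control cells by at most 1 gene. The 10 cluster genes, some of which share peaks, are part of these counts. They made up 3, 2 and 6 of the WT p65 genes and 2, 4 and 7 of the KO p65 genes. For SOCS1 they made up 4, 5 and 7 in WT cells and 6, 6 and 9 in KO cells. The pattern is thus largely that of the cluster.

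**Figure D4:**
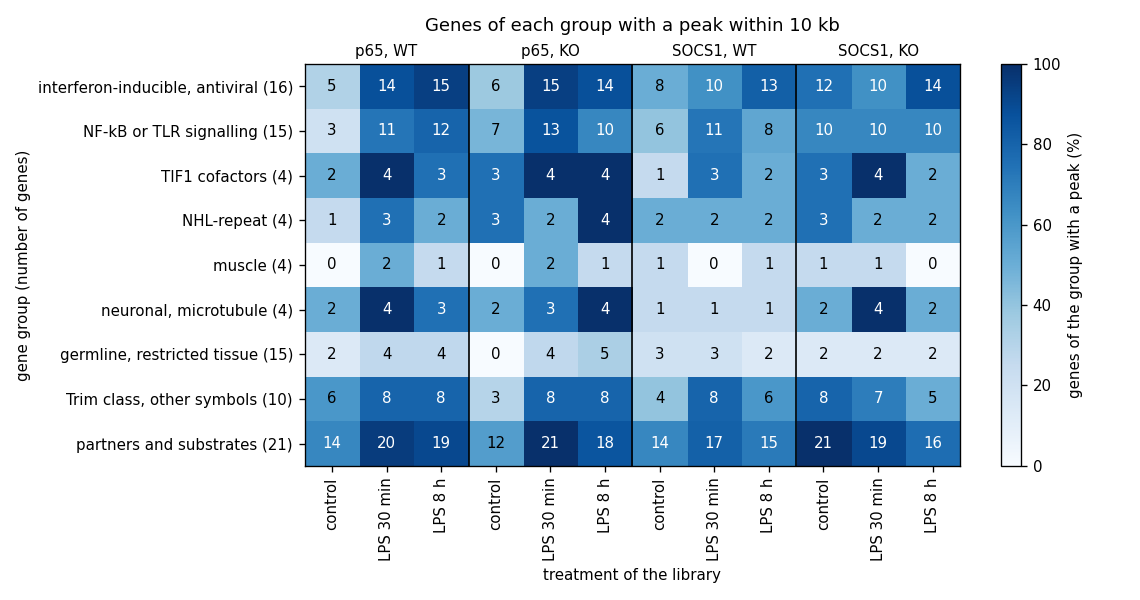
Cells give the number of genes of each group with a peak within 10 kb in each of the 12 lists, shaded by the percentage of the group. The interferon-inducible group reaches 15 of 16 in WT p65 at 8 h, while the germline group stays at 0 to 5 of 15 in every list.

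Outside the cluster Trim25 had the group's highest score in each p65 list, while for SOCS1 Trim14 was higher in both control lists (13.5 in WT cells and 39.5 in KO cells). Trim25 encodes the ligase that ubiquitinates the RNA sensor RIG-I, and was called in all 12 lists. The p65 score was 12.5, 75 and 45 in WT cells and 18.5, 85.5 and 104 in KO cells. The SOCS1 score was 12.5, 27 and 33.5 in WT cells and 30.5, 58.5 and 49.5 in KO cells. These are the highest scores near the gene and mix sites, and the WT SOCS1 scores each came from a different site. At an upstream site (chr11:88993790-88994717) the WT SOCS1 score was 24 at 30 min and 25.5 at 8 h. The scaled count there was 36.9 and 30.5 tags. The highest WT p65 peaks after LPS lay 4858 and 5330 bp from the Trim25 start and were nearest to Coil. Over the printed Trim25 window p65 was called in WT cells at 8 h (42.5) and in KO control cells (18.5), and SOCS1 at 30 min in WT cells (27) and at 8 h in KO cells (49.5).

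Other antiviral members differed in level and timing. Trim14, an adaptor of the mitochondrial RNA-sensing complex, had p65 scores of 41 and 37 after LPS in WT cells and none in control cells, and 10.5, 47 and 64.5 in KO cells. Trim21, the cytosolic antibody receptor, was called for p65 at both LPS times in both genotypes and in neither control, at 22.5 and 30.5 in WT cells and 32 and 60 in KO cells. SOCS1 was called at Trim21 in KO cells alone, at 7.5 in control cells and 22.5 at 8 h. Trim26 was called for p65 at 11, 23 and 15.5 in WT cells but in KO cells at 30 min alone (38). Trim56, a ligase acting in nucleic acid sensing, was called in 11 lists, at p65 scores of 22.5 and 22 in WT cells after LPS and 11, 40.5 and 36.5 in KO cells.

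Of 15 genes known to act on NF-κB or TLR signalling, Trim8 was called in 11 lists and had the highest or joint highest score in each SOCS1 list. The protein enhances NF-κB activity and is known as a binding partner of SOCS1 protein. Its p65 score was 86.5 and 68 after LPS in WT cells, with no WT control peak, and 28, 102 and 99.5 in KO cells. Its SOCS1 score was 32.5, 48.5 and 64.5 in WT cells and 39.5, 89.5 and 65.5 in KO cells. In KO control cells Trim14 had the same SOCS1 score, and no member exceeded Trim8 in any of the 6 SOCS1 lists.

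Peaks at Trim8 formed 7 regions. The region with the highest score in 10 of the lists lay inside the gene (chr19:46503595-46504329), and had both antibodies' peak centres 6 bp apart in WT cells at 30 min. Its scaled SOCS1 count was 70.7, 90.8 and 91.5 tags in WT cells and 118.6, 210.3 and 93.3 tags in KO cells. Another inside the gene (chr19:46510889-46511399) was called in 9 lists and gave the KO control p65 score of 28. One beyond its right end (chr19:46522574-46523265) was called in 11, with p65 scores of 77 and 54 in WT cells after LPS, and its neighbour (chr19:46523910-46524748) in 5, with p65 scores of 51 and 40 in WT cells and 80.5 and 78.5 in KO cells.

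**Figure D5:**
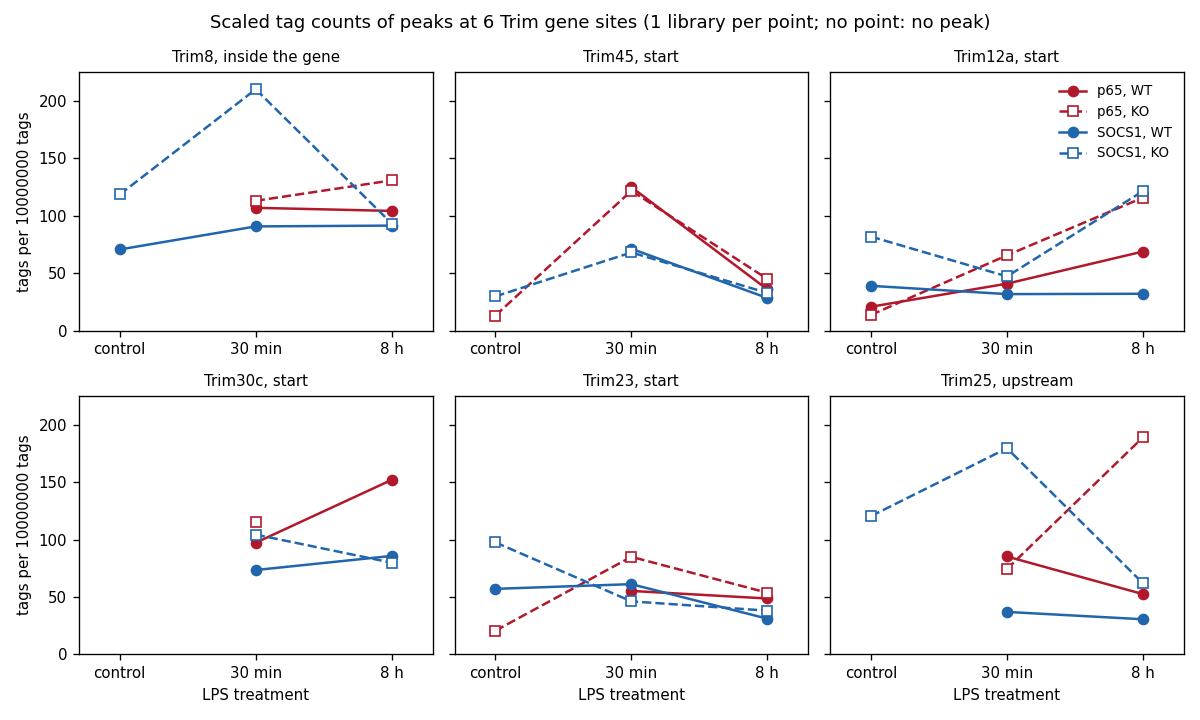
Points give the authors' scaled tag count (tags per 10000000) of the peak at 6 Trim sites in each library, by treatment; red is p65, blue SOCS1, filled with solid lines WT and open with dashed lines KO, and a missing point means no peak. At the Trim45 start all 4 series are highest at 30 min, while at the Trim12a start p65 is highest at 8 h in both genotypes.

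The list of 15 counted 3, 11 and 12 p65 genes in WT cells (all genes 32.7%, 61.9% and 55.9%) and 7, 13 and 10 in KO cells (35.8%, 65.4% and 55.5%). It counted 6, 11 and 8 SOCS1 genes in WT cells (32.4%, 47.7% and 38.6%) and 10, 10 and 10 in KO cells (55.3%, 51% and 44.6%). Held to equal list length the p65 counts were 3, 8 and 9 in WT cells and 7, 7 and 8 in KO cells, and the SOCS1 counts 6, 5 and 8 and 9, 7 and 9, so the higher counts at 30 min were lost for p65 in KO cells and SOCS1 in WT cells. Its members Trim31 and Trim40 had no peak in any list. Trim38, which limits TLR signalling by acting on TAB2 and TAB3, had p65 scores of 57 and 42.5 in WT cells and 72 and 64 in KO cells and no control peak. In WT cells at 30 min that site lay 8097 bp outside the gene and was nearest to Slc17a2. Trim13, an endoplasmic reticulum ligase, had p65 scores of 60 and 53.5 in WT cells and 67.5 and 94.5 in KO cells, also with no control peak. Its SOCS1 scores were low but present at both LPS times in both genotypes, at 11 and 13.5 in WT cells and 11 and 13 in KO cells. Trim23, a ligase with an ARF domain, had a site 262 bp from its start that it shares with Trappc13, called in 11 lists with p65 scores of 40.5 and 34.5 in WT cells after LPS. Trim27, an inhibitor of IKK kinases, had p65 scores of 10, 52.5 and 28.5 in WT cells and 14.5 and 65 in KO control cells and at 30 min, with no KO peak at 8 h. Trim39 had p65 scores of 11, 32 and 14 in WT cells and 25.5, 37 and 26 in KO cells.

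Low scores marked the remainder of that list. Trim44 was called for p65 in WT cells at 8 h alone (15) and in KO cells at 21 and 20 after LPS. Trim59 was called for p65 at 22.5 and 11 in WT cells after LPS and at 11.5 and 33 in KO control cells and at 30 min. Trim62 had single peaks, of p65 in KO cells at 30 min (12.5) and of SOCS1 in WT cells at 30 min (11).

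Trim41, Trim45 and Trim17 had the highest WT p65 scores at 30 min outside those 2 lists. Trim41 led WT p65 at 30 min (93) and KO p65 at 30 min (126), with 29 in WT control cells, 55 in WT cells at 8 h, and 9.5 and 72.5 in KO control cells and at 8 h. Its leading WT site lay 6235 bp outside the gene and was nearest to Rack1. Trim7, its neighbour, shares some of its peaks and had p65 scores of 29, 47.5 and 36.5 in WT cells and 18, 84.5 and 72 in KO cells. At the Trim45 start the p65 score was 81.5 and 28.5 in WT cells after LPS and 9.5, 102.5 and 45 in KO cells. The scaled p65 count there was 125 tags at 30 min and 35.9 tags at 8 h in WT cells, and 121.8 and 45 tags in KO cells. SOCS1 scores at Trim45 were 10, 39.5 and 19.5 in WT cells and 10.5, 35.5 and 22 in KO cells, so both antibodies and both genotypes were highest at 30 min. Trim17 had p65 scores of 16, 75.5 and 35.5 in WT cells, and its 30 min peak lay within H2aw, a histone gene that overlaps it. Trim69, which overlaps Patl2, had a p65 score of 95.5 in KO cells at 8 h and 40.5 in WT cells. These scores are not scaled to depth, and peaks were 493 bp wide in the KO list and 239 bp in the WT list. The median highest score of all called genes was 38 and 26 in these lists.

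The TIF1 group, which joins chromatin readers and transcription cofactors, counted 2, 4 and 3 of 4 p65 genes in WT cells (all genes 32.7%, 61.9% and 55.9%) and 3, 4 and 4 in KO cells (35.8%, 65.4% and 55.5%). Trim28, the corepressor KAP1 of KRAB zinc finger proteins, had SOCS1 scores of 19, 24.5 and 22.5 in WT cells and 26, 32.5 and 26 in KO cells. Its own start carried the WT 8 h peaks of p65 (27.5) and SOCS1 (22.5), 95 and 83 bp away, while the WT 30 min p65 peak (47.5) lay nearest to Ube2m. Trim66 had p65 scores of 16, 51.5 and 31 in WT cells, after LPS at a site nearest to the ribosomal gene Rpl27a. Trim33, a SMAD4 ligase, had p65 scores of 9, 23 and 14.5 in WT cells. Trim24 was called for p65 in WT cells at 30 min alone (22). For SOCS1 it was called in KO cells at both LPS times, at different sites (9.5 and 10), and in no WT list.

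Smaller families showed mixed and mostly low scores. Of the NHL-repeat genes, Trim2 was in 11 lists (p65 42 and 20.5 in WT cells after LPS) and Trim3 in all 12 (9, 39 and 15.5), while Trim32 was in 3 and Trim71, a stem cell factor, in 2. Among muscle genes Trim55 and Trim72 had peaks and Trim54 and Trim63 none. Trim72, the membrane repair protein MG53, was called for p65 after LPS in both genotypes (13.5 and 18 in WT cells, 33 and 22 in KO cells), with the highest WT peaks 7398 and 9929 bp outside the gene and another at 30 min (11.5) nearer to it. Of 4 neuronal or microtubule genes, Trim46 had p65 scores of 41 and 17 in WT cells after LPS and Trim36 of 10, 36.5 and 44. Trim9 and Trim67 were in 5 lists each. Germline or restricted-tissue genes numbered 0 to 5 of 15 in each list, where all genes had 32.4% to 65.4%.

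Called for p65 at both LPS times in both genotypes and in neither control were 10 members (14.7%, against 10% of all genes): Trim5, Trim13, Trim21, Trim30a, Trim30c, Trim37, Trim38, Trim50, Trim65 and Trim72. Trim37, a peroxisome and centrosome ligase, had p65 scores of 26.5 and 54.5 in WT cells and 58.5 and 57 in KO cells. Trim65, which ubiquitinates the RNA sensor MDA5, had 32.5 and 28.5 in WT cells and 43.5 and 48 in KO cells, and Trim50 had 16.5 and 11 and then 17.5 and 20. These calls are by gene and not by site. At Trim50 the KO 8 h peak lay at another site than the rest, and at Trim72 no site was called in all of these LPS lists. The same pattern for SOCS1 held at Trim13 and Trim30d (2.94%, against 1.04% of all genes), where no site was called for SOCS1 in all of the LPS lists either. Among members with no control peak, p65 was called at 30 min at 27 of 48 in WT cells (46.4% of such genes overall) and 23 of 43 in KO cells (48.7%). SOCS1 was called at 14 of 42 (30.5%) and 9 of 31 (18.1%). At 8 h it was 24 of 48 (38.9%) and 22 of 43 (38.2%) for p65 and 10 of 42 (21.4%) and 6 of 31 (14%) for SOCS1. Trim30d and Trim44 were the members called for WT p65 at 8 h alone (2.67% of all genes).

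Between genotypes, no member was called for p65 at both LPS times in one genotype and at neither in the other (0.21% of all genes in WT cells only, 1.1% in KO cells only). For SOCS1, Trim11 and Trim24 were called at both LPS times in KO cells and neither in WT cells (2.22% of all genes), and no member the other way (0.754%). Trim11 had SOCS1 scores of 21 and 13.5 there, and control peaks in both genotypes (12.5 and 14.5). At Trim24 the KO calls at 30 min (9.5) and 8 h (10) were at different sites, in lists whose lowest scores were 9 and 10. Of the WT p65 regions at Trim genes, 3 of 21 in control cells (14.3%), 74 of 103 at 30 min (71.8%) and 51 of 103 at 8 h (49.5%) were also called in KO cells. For all regions these shares were 23.0%, 69.9% and 51.1%. The SOCS1 shares were 37.5%, 46.8% and 51.0%, against 40.8%, 41.8% and 47.7% of all regions. The control lists thus had fewest Trim sites in common between genotypes for either antibody, and the KO control lists were those with IgG at its floor; the part of this in the shares was not tested.

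A site of p65 that overlapped one of SOCS1 lay at 7 members in WT control cells (11.8% of all genes), 21 at 30 min (35.2%) and 24 at 8 h (30.8%). In KO cells it was 16 (19.1%), 32 (40.4%) and 30 (32.1%). Such a site was found at both LPS times in both genotypes at 9 members (14.7% of all genes): Trim7, Trim8, Trim12c, Trim13, Trim17, Trim23, Trim30a, Trim30b and Trim45. These were counted by gene and need not be the same site. At Trim13 and Trim17 in KO cells the shared site differed between 30 min and 8 h. At Trim30a no site had peaks of both antibodies in all of the LPS lists. No member had a shared site in all 6 pairs of lists (3.35% of all genes). Of WT SOCS1 peaks at Trim genes, 21.9% in control cells, 54.2% after 30 min and 63.5% after 8 h overlapped a p65 peak, against 25.5%, 53.1% and 66.2% of all SOCS1 peaks. In KO cells the shares were 28.1%, 68.9% and 56.7%, against 16.3%, 60.1% and 56.2%. The p65 and SOCS1 lists of a genotype and treatment were called against the same IgG library. In the cluster 4 of 5 SOCS1 regions of WT cells at 30 min and 9 of 11 at 8 h were also p65 regions, and 7 of 7 and 7 of 12 in KO cells. With every list held to 9438 peaks, shared sites lay at 7, 10 and 15 members in WT cells (11.8%, 18.1% and 17.5% of all genes) and at 12, 12 and 18 in KO cells (14.6%, 18.4% and 18.2%), so KO cells no longer had more at 30 min than in control cells.

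Start windows gave a narrower view. Peaks lay over the 250 upstream bases of 12 of 53 members for p65 in WT cells at 30 min and at 8 h each, against 19.8% and 16.8% of all genes with a window, and of 5 in control cells (7.53%). SOCS1 peaks lay there at 8, 8 and 11 members in WT cells, against 8.83%, 12.9% and 11.5% of all genes. In KO cells p65 peaks lay there at 9, 13 and 7 members, against 10.1%, 25.2% and 15.8% of all genes. The KO counts for SOCS1 were 8, 13 and 8 members, against 15.8%, 17.3% and 12.7%. Of the 8 members with an ISRE core upstream, Trim34b had no peak in any list, and Trim7 had its core 115 to 107 bases before a start over which p65 was called at 30 min in both genotypes (17 and 23.5).

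Relatives of the family under other symbols, and the known partners of Trim proteins, were counted in the same lists. Of 10 such relatives p65 marked 6, 8 and 8 in WT cells (all genes 32.7%, 61.9% and 55.9%) and 3, 8 and 8 in KO cells (35.8%, 65.4% and 55.5%). Mefv, which encodes pyrin, a sensor that forms an inflammasome, had p65 scores of 11.5, 220.5 and 180.5 in WT cells and 35.5, 283 and 200 in KO cells, above any Trim gene after LPS. Rnf135 (Riplet, a ligase of RIG-I) and Mid1, a microtubule ligase, were also in all 12 lists, with WT p65 scores of 30.5, 74 and 51 and of 9, 96 and 50. Pml was in 11 lists and Fsd1 in none. Of 21 partners and substrates p65 marked 14, 20 and 19 in WT cells and 12, 21 and 18 in KO cells. Ticam1, the TLR adaptor TRIF, had p65 scores of 27.5, 117.5 and 79 in WT cells and 24.5, 127 and 114 in KO cells. Traf3, a signalling adaptor, had 39, 106 and 60.5 and 22.5, 150 and 76. Both were in all 12 lists, as were Irf7, Tbk1, Sting1, Ikbkg, Ube2n and Trp53. Ddx58, which encodes RIG-I, was in 11 lists, with no WT control p65 peak and scores of 43 and 33.5 after LPS.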

How the data were processed

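CUT&RUN of mouse bone-marrow-derived macrophages gave 20 labelled samples; 12 p65 and SOCS1 peak lists were analysed, the 6 IgG libraries entered only through the authors' calls, and 2 internal controls were not used here. Per the submitters' processing notes, the authors used cutadapt, Bowtie2 2.4.1, HOMER 4.11 and mm10. Per the file headers, each list was called from 1 library against the IgG library of its genotype and treatment, at an FDR of 0.001, at least 4-fold over IgG and over the local 10 kb, with at most 1 tag per bp. The deposited signal is the tag count scaled by the authors to 10000000 tags (the IgG count likewise), the deposited score is the findPeaks score in tags, not scaled to depth, and the deposited ratio is the authors' fold over IgG or over local background. None was recomputed.

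Gene spans and start windows came from RefSeq on GRCm38.p6, whose table gives no strand; strand came from the start windows. Peaks were linked to genes with Python 3.11.15 and pandas 2.3.3, where the centre lay within 10 kb of the span, and lists were called to share a site where peaks overlapped by at least 1 bp. The linking was tested on simulated peaks. Members and gene lists were chosen with earlier results of these data known. Members described by name are those in at least 10 lists, the 5 highest per antibody and genotype after LPS, those called at both LPS times and in no control or in 1 genotype only, those in no list, and those of the gene lists; any other is named after its values were seen. Alternatives were a 2 kb reach, gene ends, nearest gene, 8-fold over local background, equal lowest score, equal list length, an overlap of 0.5 of the shorter peak and centres within 500 bp. With 1 library per group no test between groups was made. Peak sequences were not analysed here, as no genome was used.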

Additional observations from a re-analysis of the deposited data

Results flagged for a closer look

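The number of Trim genes with a SOCS1 peak moved in opposite directions between control cells and 8 h of LPS in the 2 genotypes. It was higher by 4 genes in WT cells (26 in control cells, 30 at 8 h) and changed by -2 genes in KO cells (37 and 35). The opposite directions were lost with a 2 kb reach (21 to 25 in WT cells and 30 to 31 in KO cells), with the same lowest score (18 to 27 and 27 to 33) and with equal list length (26 to 25 and 30 to 30). All genes went the same ways, from 32.4% to 38.6% in WT cells and from 55.3% to 44.6% in KO cells. The difference between genotypes was not tested, since each count comes from 1 library. In the KO control list 89.1% of the Trim SOCS1 peaks had IgG tags at the floor of 0.5, while the other SOCS1 lists had 8.20% to 29.2%, and its part in the count was not tested.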

How the results depend on the processing

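No paired analysis was possible because each group has 1 library. Of 90 alternative values for 18 counts, 74 stayed within 1.5 times the count and 16 moved further. With peaks at least 8-fold above local background, p65 was called at 11 Trim genes in WT control cells, 14 in KO control cells and 19 in KO cells at 8 h. With the same lowest score of 12 in every list the counts were 9 and 11 in WT and KO control cells for p65, and 22 for SOCS1 in WT cells at 30 min. With the same number of peaks in every list (9438), p65 was called at 20 and 23 Trim genes in WT cells and 18 and 25 in KO cells at 30 min and 8 h, and SOCS1 at 21 in WT cells at 30 min. Shared sites under that choice lay at 10 and 15 members in WT cells and 12 and 18 in KO cells. Where the overlap had to cover at least 0.5 of the shorter peak, KO cells at 30 min had shared sites at 20 members. Equal list length thus removed the higher p65 count after 30 min of LPS in both genotypes, by using fewer peaks of the longer lists. Depth limits every absence, since no list reached below scores of 7 to 12 tags.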
